A study of Mus musculus with 9 samples.

Results

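Ppp1r3e, which encodes a regulatory subunit of protein phosphatase 1, and the noncoding transcript Gm43305 lie on mouse chromosome 14 and were lower in mammary tumors without HSP72 than in those with it. HSP72 is the inducible heat shock protein encoded by Hspa1a and Hspa1b. Ppp1r3e and Gm43305 are described here with 8 named neighbours, Dad1, 4931414P19Rik, Homez, Bcl2l2, Pabpn1, Slc22a17, Ngdn and Ap1g2, which makes 10 of the 55401 mouse gene entries counted. Ppp1r3e and Gm43305 were chosen by their measured difference between the genotypes, as 2 of the 13 genes called. The gene 4931414P19Rik was named together with them, with its values known, and the remaining 7 genes were listed as nearby genes. Since this contrast chose genes, fold changes, counts of calls and counting intervals for the 10 genes only describe these libraries, and none is a test of the choice.

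The tumors arose spontaneously in female C57BL/6 mice that carried the MMTV-PyMT oncogene and a human MUC1 transgene. Tumors with Hspa1a and Hspa1b intact (WT, Hspa1a/Hspa1b+/+) gave 4 libraries from animals of 122 to 132 days. Those without them (KO, Hspa1a/Hspa1b-/-) gave 5 libraries from animals of 120 to 125 days, and both transgenes were present in every animal. The MMTV promoter is active mainly in mammary epithelium, so PyMT drives tumors of that epithelium. The labels describe separate tumor samples without animal numbers, so the spread given is that between these samples, which may be technical in part. Each tumor was dissociated with collagenase and trypsin before RNA extraction. In such bulk RNA, fewer cells of a type and less RNA per cell cannot be told apart.

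Glycogen is built and broken down under the control of phosphorylation. Targeting subunits of the PPP1R3 family bring the phosphatase to glycogen particles, where it removes phosphate from glycogen synthase, which is thereby activated, and from glycogen phosphorylase, which is thereby switched off. Ppp1r3e is one of these subunits. Its neighbours have other functions. Bcl2l2 encodes the survival protein BCL-W, Pabpn1 a nuclear protein that binds poly(A) tails, and Dad1 a subunit of the oligosaccharyltransferase that attaches N-glycans in the endoplasmic reticulum.

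In genomic order on GRCm38, Dad1 (ENSMUSG00000022174.8, minus strand) spans 54235479 to 54254104 and Gm43305 (ENSMUSG00000105703.2, minus strand, annotated as a processed transcript) 54292443 to 54297456. After a gap of 286206 bases follows 4931414P19Rik (ENSMUSG00000022179.5, minus strand), at 54583663 to 54605993. Homez (ENSMUSG00000057156.10, minus strand) lies at 54852736 to 54870961 and ends 1707 bases before Ppp1r3e (ENSMUSG00000072494.7, minus strand), at 54872669 to 54877550. Bcl2l2 (ENSMUSG00000089682.10, plus strand, 54883377 to 54888234) faces away from Ppp1r3e across 5826 bases. Pabpn1 (ENSMUSG00000022194.15, plus strand, 54892500 to 54898169), Slc22a17 (ENSMUSG00000022199.12, minus strand, 54906304 to 54913132), Ngdn (ENSMUSG00000022204.9, plus strand, 55015454 to 55024137) and Ap1g2 (ENSMUSG00000040701.16, minus strand, 55098575 to 55106593) complete the row. The interval covers 871115 bases.

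The following stretches show the sequence at the genes the results turn on. The first is the start of the Ppp1r3e coding sequence, from a GENCODE protein-coding transcript (GRCm38, chr14:54877154-54877303, minus strand), with the start codon in capitals. This transcript codes over 837 bases in 2 coding exons. The others are RefSeq promoter sequences (GRCm38.p6), cut to the part that holds no annotated exon. They belong to 4931414P19Rik (chr14:54605994-54606158, minus strand), the other protein-coding gene of the 10 that was lower in every KO library, and to Bcl2l2 (chr14:54883175-54883376, plus strand), which starts head to head with Ppp1r3e. Capitals in these mark GC boxes, the letters GGGCGG on either strand.
Ppp1r3e: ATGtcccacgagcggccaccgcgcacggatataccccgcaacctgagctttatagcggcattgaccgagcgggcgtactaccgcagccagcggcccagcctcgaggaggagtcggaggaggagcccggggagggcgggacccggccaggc
4931414P19Rik: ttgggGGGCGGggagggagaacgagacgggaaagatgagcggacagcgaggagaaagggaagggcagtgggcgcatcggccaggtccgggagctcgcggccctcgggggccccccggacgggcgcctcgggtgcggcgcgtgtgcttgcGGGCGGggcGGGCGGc
Bcl2l2: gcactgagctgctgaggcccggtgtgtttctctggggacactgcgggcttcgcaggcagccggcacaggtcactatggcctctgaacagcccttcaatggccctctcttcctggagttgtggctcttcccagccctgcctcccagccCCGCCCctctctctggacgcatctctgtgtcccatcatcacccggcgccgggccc
The 4931414P19Rik stretch of 165 bases holds 3 GC boxes and is 76.4% G or C, and the Bcl2l2 stretch of 202 bases holds 1 and is 65.8% G or C.

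RefSeq promoters were found for 9 of the 10 genes, Ppp1r3e being the one without. In the 250 bases before the start, 6 of the 9 held GGGCGG and 5 held CCAAT, where 32.7% and 33.8% of all 32851 promoters did. Both strands were searched and matches could overlap those of another motif. TATAAA was found in 1 of the 9, that of Gm43305, and in 12.4% of all promoters. The heat shock half-site pairs GAANNTTC and TTCNNGAA were in none of the 9, and in 6.69% and 7.17% of all promoters. These matches only describe letters in this window.

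Each library held 4410399 to 6221181 fragments counted on genes. The upper limit that a count of 0 leaves was 0.482 to 0.680 CPM (counts scaled to library size) in a library, which is the level of 3 counts and covers counting error alone. As a check of the labels, Hspa1b averaged 55.0 ± 22.3 CPM over the 4 WT libraries and 0.203 ± 0.269 CPM over the 5 KO libraries (SD). Over the 14665 genes tested, edgeR called 0.0886% in either direction (0.0341% lower and 0.0546% higher in KO), and 7.95% had an unadjusted p under 0.05.

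Ppp1r3e was lower in every KO library than in any WT library. It stood at 5.35, 9.20, 5.65 and 7.39 CPM in WT 1 to WT 4. In KO 1 to KO 5 it stood at 1.58, 2.12, 1.64, 2.17 and 1.03 CPM. The highest KO library, KO 4, lay well under the lowest WT library, WT 1. It averaged 6.90 ± 1.78 CPM over the 4 WT libraries and 1.71 ± 0.465 CPM over the 5 KO libraries (SD), and the KO mean was 24.7% of the WT mean. The log2 fold change was -2.00 ± 0.28 (SE).

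The gene is a low one, and the counts behind it are few. Ppp1r3e had 134 counts in all WT libraries together and 49 in all KO libraries, with 6 to 13 counts in a single KO library. From the summed counts the WT level was 4.01 times the KO level (exact 95% interval 2.87 to 5.68, counting error only). The coefficient of variation was 25.8% among WT libraries and 27.3% among KO libraries, where counting alone would give 16.4% and 33.1%. The KO libraries thus spread no more than their counting error. None of the 2508 exon bases of Ppp1r3e is shared with another annotated gene, and no other annotated transcript matched it at 90% identity over 100 bases.

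Gm43305 was present in every WT library and close to absent from KO. Its counts were 16, 36, 21 and 152 in WT 1 to WT 4, and 1, 0, 1, 1 and 0 in KO 1 to KO 5. Scaled to library size this was 3.72, 7.52, 3.49 and 34.0 CPM in WT and at most 0.197 CPM in KO. WT 4 alone held 152 of the 225 WT counts, and the groups did not overlap with or without it. WT 4 also had the highest unmapped (27.1%) and multimapped (9.53%) shares of all libraries. Whether these shares relate to its Gm43305 count was not tested. The 2 KO libraries without a count allowed up to 0.482 and 0.514 CPM.

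The size of this difference depended on WT 4. From the summed counts of 225 and 3, the WT level was 110 times the KO level (exact 95% interval 37.1 to 537, counting error only). Without WT 4 the counts were 73 and 3 and the ratio was 46.2 (15.2 to 229). The fitted log2 fold change was -6.56 ± 0.99 (SE) with all libraries and -5.27 ± 0.58 without WT 4.

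Reads from Gm43305 cannot all be told from those of other loci. Its short annotated transcript of 705 bases was covered in full by alignments to transcripts of other genes at 97% identity or more, and its long one of 4901 bases over 28.5% of its length. In all, 18 other genes shared at least 100 bases at 90% identity or more. The longest match, Gm26880 (95.5% identical over 755 bases), had no entry among the genes counted, so its level is unknown. The 2 longest matches with any count had few in either genotype. For Gm42031, 98.7% identical over 748 bases, 8 WT and 15 KO counts were listed, and for Gm4316, 92.2% identical over 528 bases, 3 and 5. Some shorter matches lay in genes with many counts. Chd9, 98.0% identical over 293 bases, had 4098 WT and 6733 KO counts (log2 fold change 0.16 ± 0.12 SE). Apobec3, 92.0% identical over 299 bases, had 8711 and 14353 (0.17 ± 0.15). Fragments that match several places equally well are left out of such counts, so the level of Gm43305 is uncertain, and the part of these copies in the difference was not tested.

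The third gene that was lower in every KO library was 4931414P19Rik, a protein-coding gene without an assigned name. It stood at 10.7, 9.41, 9.80 and 13.4 CPM in WT 1 to WT 4. In KO 1 to KO 5 it stood at 6.30, 5.21, 3.78, 6.50 and 4.27 CPM. The groups did not overlap. It averaged 10.8 ± 1.81 CPM over the 4 WT libraries and 5.21 ± 1.20 CPM over the 5 KO libraries (SD), a log2 fold change of -1.05 ± 0.22 (SE). No exon base is shared with another gene.

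Thus 3 of the 10 genes lay lower in every KO than in every WT library, where 1.26% of all genes tested did, and none lay higher in every KO library, where 1.44% did. In the edgeR fit 2 of the 10 were called, and in DESeq2, which called 0.464% of all genes, 3 were, the third being 4931414P19Rik. Since this contrast chose Ppp1r3e, Gm43305 and 4931414P19Rik, these counts restate the choice. The Ppp1r3e call was kept in 1 of 9 leave-one-out fits (without WT 1). That of Gm43305 was kept in 3 (without WT 1, WT 3 or WT 4).

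**Figure D1:**
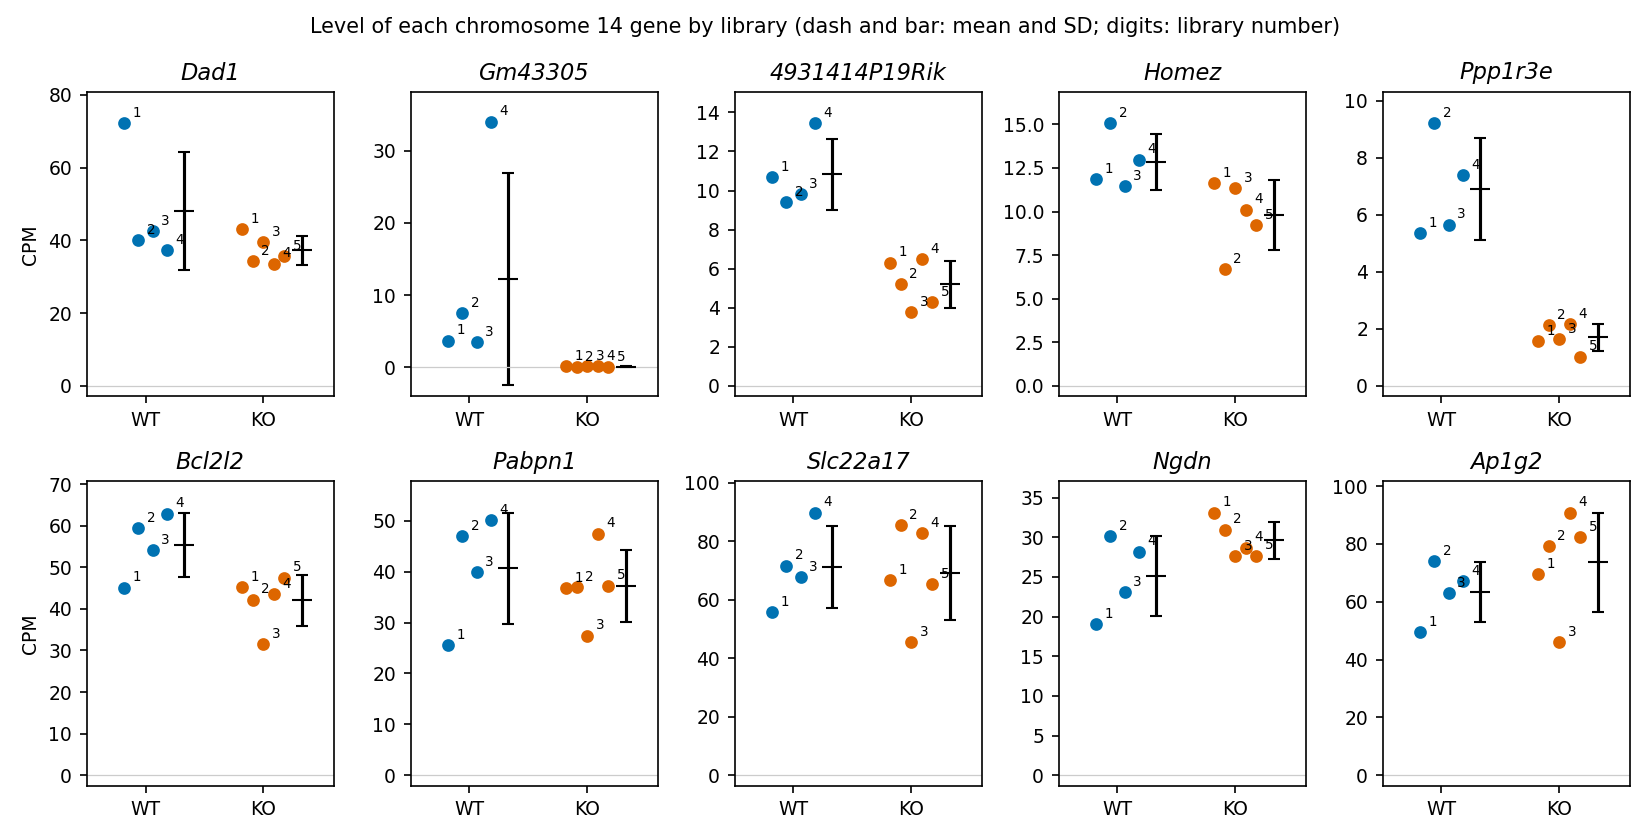
Level of each of the 10 genes in CPM (vertical axes, each with its own scale and a grey line at 0), by genotype. Points are single libraries with their number, and dashes with bars are the mean and SD of 4 WT or 5 KO libraries. WT and KO do not overlap for Ppp1r3e, Gm43305 and 4931414P19Rik, and WT 4 stands at 34.0 CPM for Gm43305.

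The genes next to Ppp1r3e differed far less. Homez, a homeobox protein with leucine zippers that lies on the same strand 1707 bases away, had a log2 fold change of -0.39 ± 0.19 (SE). It stood at 11.9, 15.0, 11.5 and 13.0 CPM in WT 1 to WT 4 and at 6.68 to 11.6 CPM in KO. Of the 5 KO libraries 4 lay below the lowest WT library. An overlap of 237 exon bases with Rnf212b on the opposite strand touches 4.0% of its exon bases.

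Bcl2l2, the survival gene that starts head to head with Ppp1r3e, stood at 45.1, 59.4, 54.2 and 62.9 CPM in WT 1 to WT 4. Its KO libraries stood at 31.5 to 47.5 CPM, and 3 of them were below every WT library. The log2 fold change was -0.40 ± 0.15 (SE), with averages of 55.4 ± 7.72 CPM over the WT and 42.0 ± 6.20 CPM over the KO libraries (SD). Pabpn1 overlapped fully, at 25.6 to 50.1 CPM in WT and 27.4 to 47.5 CPM in KO, with a log2 fold change of -0.13 ± 0.20. Both genes share exon bases on the same strand with the read-through transcript Gm20521, namely 13.3% for Bcl2l2 and 21.4% for Pabpn1. Fragments in shared bases cannot be assigned, so their levels leave these bases out.

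Farther along, no gene separated the genotypes. Slc22a17, which encodes a receptor for the iron-carrying protein lipocalin 2, ranged from 55.8 to 89.8 CPM in WT and from 45.5 to 85.5 CPM in KO, with a log2 fold change of -0.04 ± 0.19 (SE). Ngdn, which encodes neuroguidin, had 19.1, 30.1, 23.1 and 28.2 CPM in WT 1 to WT 4 and 27.6 to 33.1 CPM in KO. Its log2 fold change was 0.24 ± 0.15, and 2 KO libraries lay above every WT library. Ap1g2, a gamma subunit of the AP-1 clathrin adaptor, ranged from 49.5 to 74.0 CPM in WT and from 46.1 to 90.8 CPM in KO (log2 fold change 0.21 ± 0.19). Of its exon bases 9.9% overlap Thtpa on the opposite strand, and no source used here gives the strand setting.

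Dad1, at the other end of the interval and 38338 bases from Gm43305, stood at 72.1, 40.1, 42.5 and 37.4 CPM in WT 1 to WT 4. Its KO values, 33.6 to 43.1 CPM, overlapped those of WT. WT 1 carried much of the difference, whose log2 fold change was -0.37 ± 0.19 (SE) with it and -0.11 without it.

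Scaled to exon length, the genes fell into a higher and a lower set. In WT the highest level per kilobase was that of Ngdn, at 16.9 ± 3.37 CPM per kb (SD). Slc22a17 (15.8 ± 3.11), Ap1g2 (15.2 ± 2.47), Pabpn1 (13.4 ± 3.60), Bcl2l2 (12.4 ± 1.73) and Dad1 (12.3 ± 4.13) followed, each within 1 SD of the next. Below them, with ranges that overlapped between neighbours, came 4931414P19Rik (3.52 ± 0.589), Ppp1r3e (2.75 ± 0.709), Gm43305 (2.43 ± 2.93) and Homez (2.17 ± 0.272). Without WT 4 the Gm43305 level was 0.980 ± 0.452 CPM per kb, below that of Homez (2.17 ± 0.333). In KO, 4931414P19Rik (1.69 ± 0.391) and Homez (1.66 ± 0.337) stood together, above Ppp1r3e at 0.680 ± 0.185 and Gm43305 at 0.0216 ± 0.0199 CPM per kb. The lower set held Ppp1r3e, Gm43305 and 4931414P19Rik, which were lower in every KO library, and Homez, whose genotypes overlapped. Since the contrast chose the genes other than Homez, whether level and difference are related was not tested.

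The rest of the interval was read from the annotation, taking every gene between the start of Dad1 and the end of Ap1g2. Of 51 other annotated genes, 18 were tested. edgeR called none of them, 2 had an unadjusted p under 0.05, both lower in KO, and DESeq2 called 1. Their median log2 fold change was -0.22, with 12 of 18 negative, where the median over all genes tested was -7.76e-05 and 50.0% were negative. The 8 genes tested in the 0.5 Mb on each side had a median of 0.08, with none called by either tool and none at an unadjusted p under 0.05. On all of chromosome 14, 479 genes were tested, the 10 included. Of these, edgeR called 5 higher and 2 lower in KO, and DESeq2 called 14. Over all 14665 genes tested, edgeR called 8 higher and 5 lower, and DESeq2 called 68.

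**Figure D2:**
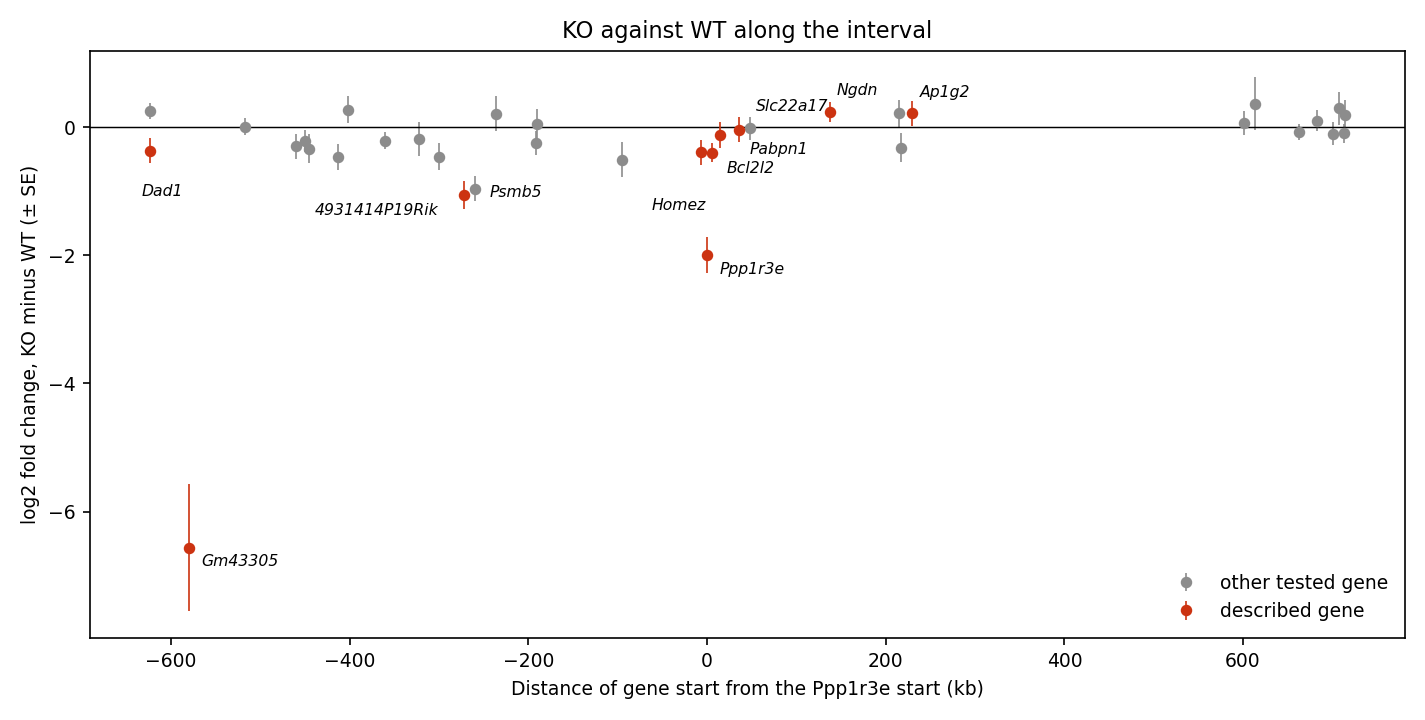
Log2 fold change between KO and WT (vertical axis, with SE bars) against the distance of each gene's start from that of Ppp1r3e in kb (horizontal axis), for all genes tested in the interval and 0.5 Mb on each side. Red points are the 10 described genes and grey points the others. Gm43305 (-6.56), Ppp1r3e (-2.00), 4931414P19Rik (-1.05) and Psmb5 (-0.96) lie lowest, and all other points lie between -0.51 and 0.37.

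Among the other genes of the interval, Psmb5, Lrp10 and Ajuba had the smallest p-values. Psmb5, which lies next to 4931414P19Rik and encodes a catalytic proteasome subunit, stood at 12.6, 15.0, 12.1 and 9.62 CPM in WT 1 to WT 4. In KO it stood at 5.38 to 7.87 CPM, below every WT library. Its log2 fold change was -0.96 ± 0.20 (SE; edgeR adjusted p = 0.222), and it was the gene called by DESeq2. Lrp10, a member of the LDL receptor family, had -0.46 ± 0.20 (edgeR adjusted p = 0.616) and Ajuba, a LIM domain protein of cell junctions, -0.46 ± 0.21 (0.634).

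A processed copy of Psmb5 on another chromosome showed the opposite pattern. Gm3375 on chromosome 7, chosen after its values were seen, is 98.9% identical to Psmb5 over 796 bases. It had 0 counts in each WT library and 26, 31, 39, 35 and 35 counts in KO 1 to KO 5, and edgeR called it, though not with the sample number as a block. The sum of the pair averaged 12.3 ± 2.22 CPM over the 4 WT libraries and 12.1 ± 1.24 CPM over the 5 KO libraries (SD). The summed values ranged from 9.62 to 15.0 CPM in WT and from 10.4 to 13.8 CPM in KO, so the genotypes overlapped once the pair was added. Fragments that fit both copies equally well are not counted, and the division between them is uncertain. For Ppp1r3e no annotated transcript matched at 90% identity over 100 bases, so no such sum was formed. The part of sequence copies in the difference of either gene was not tested.

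**Figure D3:**
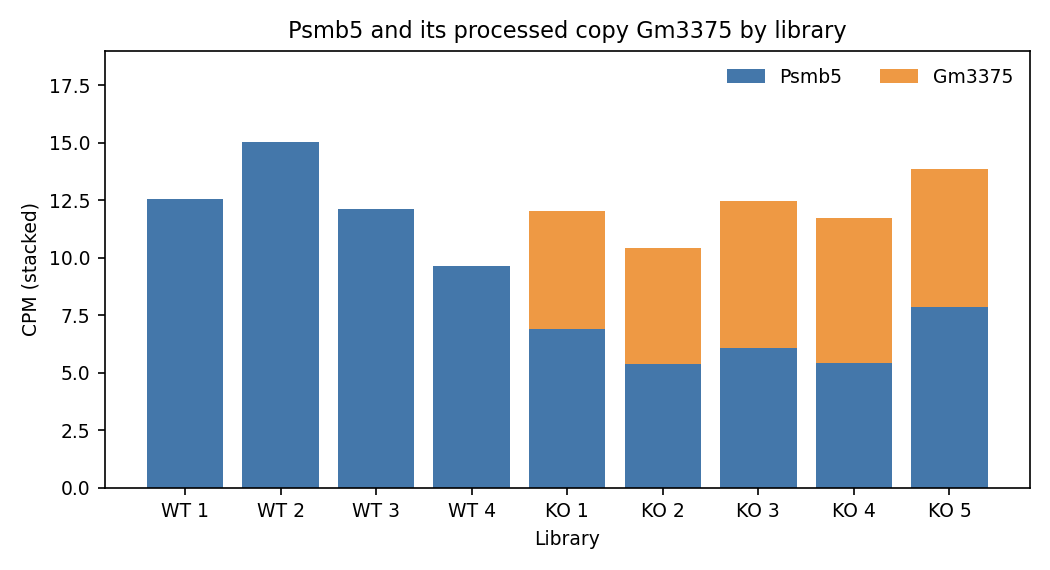
Psmb5 and its processed copy Gm3375 in CPM, stacked (vertical axis), for each of the 9 libraries (horizontal axis). Gm3375 is at 0 in the 4 WT libraries and between 5.05 and 6.40 CPM in the 5 KO ones, and the height of the whole bar overlaps between genotypes.

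Relatives and partners of Ppp1r3e were followed in fixed lists, and whether they differed less than Ppp1r3e was not tested. Of the 6 other glycogen-targeting subunits, 3 were tested. Ppp1r3c had a log2 fold change of -0.02 ± 0.37 (SE), Ppp1r3b -0.82 ± 0.59 and Ppp1r3f 0.42 ± 0.29, and Ppp1r3g had no count in any library. Of the catalytic subunits Ppp1ca, Ppp1cb and Ppp1cc, Ppp1cb had -0.33 ± 0.14 and Ppp1ca -0.27 ± 0.13, while Ppp1cc had 0.05 ± 0.15. edgeR and DESeq2 called none of these 6 genes, and 1 (Ppp1cb, lower) had an unadjusted p under 0.05.

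The enzymes of glycogen turnover lay close to zero change. Of 22 genes of glycogen synthesis and breakdown, 20 were tested, with log2 fold changes from -0.39 to 0.34 around a median of 0.05. Neither edgeR nor DESeq2 called any, and none had an unadjusted p under 0.05. The smallest p-values were those of the phosphorylase kinase subunits Phkg2 (0.30 ± 0.16 SE) and Phka2 (0.24 ± 0.14) and of the lysosomal glucosidase Gaa (-0.28 ± 0.20). The summed level of all 22 genes was 1070 to 1119 CPM in WT and 1041 to 1150 CPM in KO.

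Partners of the neighbouring genes were called in no case by either tool. The 12 tested relatives of Bcl2l2 in the BCL2 family had a median log2 fold change of -0.09, with Bak1 at -0.33 ± 0.17 (SE), Bmf at -0.31 ± 0.20 and Bax at 0.27 ± 0.18. The 18 genes of mRNA polyadenylation, with which Pabpn1 acts, had a median of 0.06 (Cpsf2 -0.22 ± 0.11, Cstf3 0.30 ± 0.19, Pabpc1 -0.23 ± 0.15). The 7 other AP-1 adaptor subunits had a median of -0.12 (Ap1g1 -0.12 ± 0.11, Ap1s1 -0.15 ± 0.15, Ap1s2 -0.39 ± 0.30). Of the 3 ZHX relatives of Homez, Zhx1 had 0.08 ± 0.13, Zhx2 -0.18 ± 0.19 and Zhx3 -0.06 ± 0.16. In these 4 lists no gene had an unadjusted p under 0.05.

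Dad1 had the same sign as the other subunits of its complex. The fold changes of all 11 other oligosaccharyltransferase genes were negative, with a median log2 value of -0.39 beside -0.37 for Dad1. Krtcap2 (-0.39 ± 0.16 SE) and Magt1 (-0.60 ± 0.26) had an unadjusted p under 0.05, Rpn2 stood at -0.53 ± 0.27, and none was called. WT 1 was high in these genes as in Dad1, with a summed level of 2523 CPM where WT 4, the lowest of the WT libraries, had 942 CPM, and KO had 849 to 1393 CPM. Without WT 1 the median of the 11 was 0.0067. Of lipocalin 2 and the 7 listed SLC22 carriers, 7 were tested with a median of -0.19. Slc22a23 (-0.37 ± 0.14) had an unadjusted p under 0.05, Slc22a21 stood at 0.31 ± 0.22 and Slc22a15 at 0.21 ± 0.17, and none was called.

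**Figure D4:**
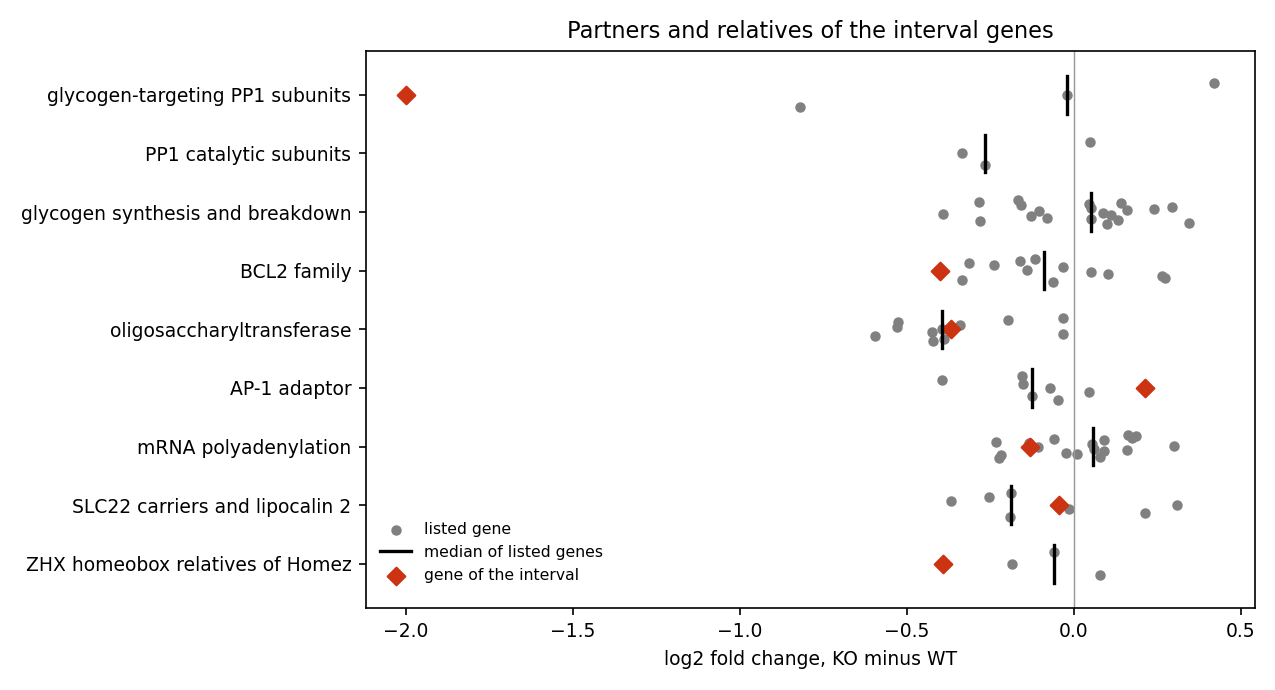
Log2 fold change between KO and WT (horizontal axis) for the tested genes of each list of partners or relatives (grey points), with the list's median (black line) and the gene of the interval it belongs to (red diamond). Ppp1r3e at -2.00 lies outside the range of its 3 tested relatives, -0.82 to 0.42, and Dad1 at -0.37 beside the median of its complex, -0.39.

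Within a genotype the genes of the interval did not all vary together. Deviations of log2 CPM from the genotype means were correlated over the 9 libraries, as a description. They ran together for Bcl2l2, Pabpn1, Slc22a17 and Ap1g2, with Pearson r of 0.79 to 0.88 over the 6 pairs. Dad1 went the other way, with r of -0.62 to -0.86 against these 4 genes. Without WT 1 and WT 4 its r was -0.25 with Bcl2l2 (-0.62 with all libraries), -0.56 with Pabpn1, -0.60 with Slc22a17 and -0.63 with Ap1g2. For Ppp1r3e, r was highest with Ngdn (0.65), Pabpn1 (0.53) and Slc22a17 (0.50), followed by Gm43305 (0.40), Ap1g2 (0.34) and 4931414P19Rik (0.32). It was 0.16 with Bcl2l2 and 0.09 with Homez, the genes on either side of Ppp1r3e, and -0.48 with Dad1. All these values share the same libraries and scaling factors, and WT 1 was the lowest WT library for the 4 genes and the highest for Dad1.

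The genes whose deviations were most like those of Ppp1r3e lay on other chromosomes. They were Mettl22 (r = 0.97), Plek2 (0.96), Fam83f (0.96), Asap2 (0.94) and Jdp2 (0.94), over 9 libraries. Their log2 fold changes between KO and WT lay between -0.16 and 0.03. The genes most like Gm43305 were Bicdl1 (r = 0.97), Pde8b (0.93), Fkbp5 (0.93), Cradd (0.92) and Lrrc14 (0.92), with r of 0.79 to 0.87 without WT 4. Each set is the highest of the correlations with all genes tested, over 9 libraries.

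Cell type markers, those of the luminal epithelium included, moved with genotype in part. All 8 fibroblast markers had negative fold changes and their summed level was 753 to 1043 CPM in WT and 290 to 636 CPM in KO. All 6 endothelial markers (31.4 to 119 CPM in WT, 17.1 to 52.0 in KO), all 8 macrophage markers (337 to 593 and 211 to 421) and all 6 luminal epithelial markers (3194 to 6159 and 2896 to 3604) were negative too. WT 1 alone gave the endothelial sum of 119 CPM, and without WT 1 the median log2 fold change of these markers was -0.20 in place of -0.83. For the macrophage markers the median was -0.62, and -0.25 without WT 1 and WT 4. edgeR called none of these fibroblast, endothelial, macrophage and luminal markers, while DESeq2 called 2 fibroblast markers and 1 macrophage marker. An unadjusted edgeR p under 0.05 was found for 6 fibroblast, 2 endothelial, 2 macrophage and 2 luminal markers, all lower in KO. All 5 tested muscle markers had positive fold changes (median log2 0.53), and Tnnt3 (0.67 ± 0.26 SE) had an unadjusted edgeR p under 0.05. Of the 3 tested adipocyte markers, Lpl (-1.21 ± 0.31) had one too. DESeq2 called 1 adipocyte marker and no muscle marker, and edgeR called none of either. No basal or T and NK cell marker had such a p. The basal markers stood at 83.9 to 124 and 79.3 to 142 CPM, those of T and NK cells at 8.97 to 17.8 and 3.78 to 28.0, adipocytes at 34.9 to 47.9 and 16.4 to 29.6, muscle at 48.1 to 130 and 80.9 to 158, and neurons at no more than 1.33. The adipocyte sums were carried by Lpl (31.5 CPM on average in WT, 13.6 in KO), while Plin1 (2.69 and 2.80), Fabp4 (4.10 and 4.01) and Adipoq (1.11 and 1.08) had like means in both genotypes. No marker was at 0 in all libraries, and the luminal markers had the highest summed level of these lists. The part of these cells in the levels of the 10 genes was not tested.

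The directions of the larger differences did not turn under any setting in which the genes were tested. The log2 fold change of Ppp1r3e lay between -2.10 and -1.69, the latter with age as a covariate, and that of 4931414P19Rik between -1.15 and -0.89. Bcl2l2 lay between -0.48 and -0.31 and Homez between -0.46 and -0.28. Only Pabpn1 and Slc22a17 changed sign, in 1 and 3 settings.

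**Figure D5:**
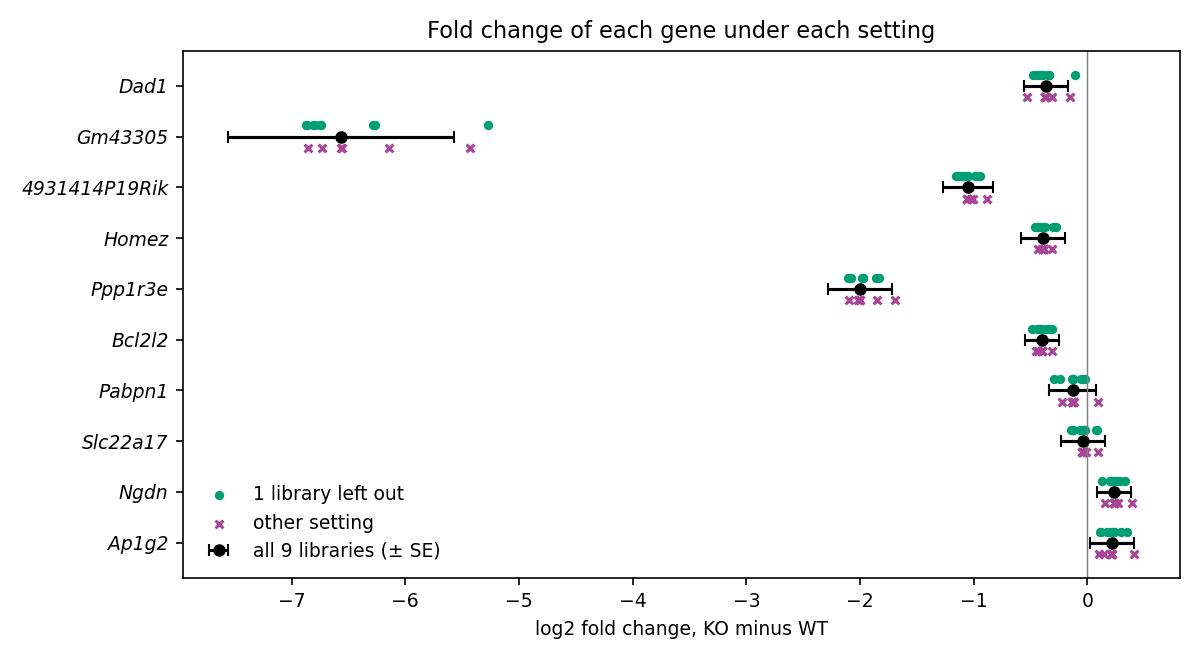
Log2 fold change between KO and WT (horizontal axis) of each of the 10 genes (rows) with all libraries (black, with SE), with 1 library left out (green) and under the other settings (purple crosses). Ppp1r3e stays between -2.10 and -1.69, and Gm43305 moves from -6.56 to -5.27 without WT 4.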

How the data were processed

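RNA of 9 dissociated mammary tumors was ribosome-depleted and sequenced as stranded paired ends, per the labels' protocols. Trimmomatic 0.36, FastQC 0.11.5, STAR 2.5.4a and GRCm38 are named in the submitters' processing notes. The authors deposited raw counts per gene and library. No source used here gives the annotation release or the strand setting. Entries that name no gene (11.0% to 27.1% unmapped, 5.50% to 9.53% multimapped, 34.0% to 50.4% without a feature, 0.971% to 1.23% ambiguous) stayed out of library sizes and tests.

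Groups came from the labels. Differences were fitted with edgeR 4.0.16 in R 4.3.3 (glmQLFit, glmQLFTest, TMM factors, filterByExpr, genotype only), two-sided, with Benjamini-Hochberg adjusted p under 0.05 called over 14665 genes. The test was tested on simulated data. SE is the log2 fold change over the square root of F. CPM uses TMM-scaled totals of the tested genes, while floors use totals over all genes. Correlations used log2 CPM with a prior count of 2. Of 55401 gene identifiers, 55141 matched a GENCODE M21 symbol, and all 10 genes matched with the same version. Copies were sought with BLAST 2.17.0 among GENCODE transcripts.

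The genes, lists and tests were chosen with earlier results of these data known. Named are the 10 genes, the called or else 3 lowest-p other genes of the interval, up to 3 lowest-p genes per list, and the 5 genes most like Ppp1r3e and Gm43305. Alternatives were DESeq2 1.42.0, RLE factors, all genes kept regardless of counts, only genes averaging 50 counts or more, a block for the sample number, an age term, 0.5 Mb flanks and each library left out. A fit without WT 1 and WT 4, the libraries richest in Csn1s1 and Csn2 counts, was chosen after seeing the data.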

Additional observations from a re-analysis of the deposited data

Results flagged for a closer look

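Of the 20 groups of libraries examined for the 10 genes, 2 held a library far from the others. The rule is meant to flag about 1 in 20 independent groups by chance. These groups share the same 9 libraries, so the number expected here is not known. Gm43305 in WT 4 stood at 34.0 CPM, against 3.49 to 7.52 CPM in the other WT libraries. Dad1 in WT 1 stood at 72.1 CPM, against 37.4 to 42.5 CPM in the other WT libraries.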

How the results depend on the processing

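Low counts limit Ppp1r3e and Gm43305 most, with 49 and 3 counts over the KO libraries. The number of the 10 genes called was 2, and 0 with age as a covariate. At a mean count of at least 50 it was 0 by construction, since Ppp1r3e, Gm43305 and 4931414P19Rik were then not tested. It was 1 with the sample number as a replicate block, which kept Gm43305, and 1 without WT 1 and WT 4. With 1 library left out it ran from 0 to 2. Deviations of same-numbered libraries had correlations of -0.024 to 0.38. Differently numbered libraries were not compared, so whether the numbers pair the samples was not tested.

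Over all genes 13 were called, 29 without a count filter, 6 at a mean count of at least 50, 68 by DESeq2 and 6 to 13 with 1 library left out. DESeq2 called 1 other gene of the interval. List medians moved for adipocytes (-1.21 at a mean count of at least 50, which leaves 1 gene, and 0.62 with age as a covariate) and basal markers (0.16 at a mean count of at least 50). Without WT 1 and WT 4 they moved for glycogen enzymes (-0.065) and targeting subunits (0.43). With 1 library left out they ran from -0.029 to 0.087 for glycogen enzymes, -0.012 to 0.070 for polyadenylation and -0.26 to 0.0043 for SLC22 carriers. The cause was not tested. The other 461 of 494 recomputed values moved by less than the spread between libraries or, for counts, by less than 1.5 times, and none of the called genes changed sign.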

Other observations

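One further transcript that shares sequence with Gm43305 was higher in KO. AC102496.1, which matched Gm43305 at 92.0% identity over 377 bases, had 1, 4, 5 and 6 counts in WT 1 to WT 4 and 13, 14, 26, 25 and 41 counts in KO 1 to KO 5. Its log2 fold change was 2.31 ± 0.47 (SE; edgeR adjusted p = 0.222), and it was chosen after its values were seen. Of the other 17 genes that share sequence with Gm43305, AI506816 had 577 of its 1162 WT counts in WT 1 and 1182 counts over all KO libraries.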
